A study of Homo sapiens and Mus musculus with 19 samples.

Results

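A set of 10 genes of retroelement silencing and histone H3 lysine 9 (H3K9) methylation was followed in chromatin-associated RNA (caRNA), the RNA that stays with the chromatin pellet when cells are fractionated. The genes were taken by name and not by any measured value: TRIM28, SETDB1 and ATF7IP, the HUSH genes TASOR, MPHOSPH8 and PPHLN1 with MORC2, and the H3K9 methyltransferase genes SUV39H2, EHMT1 and EHMT2. All 10 were found in the human tables, which hold 58721 genes, and all 10 orthologues in the mouse tables, which hold 54446. The mouse annotation names TASOR Fam208a, and its direct counterpart of MORC2 is Morc2a. All 10 passed the low-count filter in both species, among 26023 human and 27603 mouse genes tested.

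TRIM28 (KAP1) is the corepressor that KRAB zinc finger proteins bring to retroelements, and it recruits the H3K9 methyltransferase SETDB1. ATF7IP is a nuclear partner that stabilises SETDB1. The HUSH complex (TASOR as scaffold, MPHOSPH8 as reader of methylated H3K9 through its chromodomain, PPHLN1 encoding periphilin) silences long intronless DNA such as LINE-1 elements and integrated viruses, and works with the ATPase MORC2. SUV39H2 methylates H3K9 in constitutive heterochromatin, whereas EHMT1 (GLP) and EHMT2 (G9a) form the heterodimer that mono- and dimethylates H3K9 in euchromatin. In embryonic stem cells TRIM28 and SETDB1 are known for holding endogenous retroviruses silent.

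Mouse embryonic stem cells (mESC) were grown in serum with LIF and inhibitors of GSK3 (CHIR99021) and MEK (PD0325901), passaged off feeder cells, and transfected with siRNA, either a control (siControl) or one targeting Nsun2 (siNsun2), the gene of an enzyme that places m5C on RNA. Each group has 3 libraries. K562, a human leukaemia line, was TET2 wild type (WT) or TET2 knockout (KO) and carried a lentiviral hairpin under puromycin, either control (shControl) or targeting MBD6 (shMBD6), whose protein has a methyl-CpG-binding domain. These 4 groups also have 3 libraries each. TET2 oxidises 5-methylcytosine. The sources used here do not give how many clones the KO line represents, nor whether the libraries of a group came from separate cultures. The study's methods call them replicates of each condition, and its legends speak of biological replicates for the genome-wide data. The p-values measure the spread between these libraries, part of which may be technical.

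Libraries held 62989044 to 66832780 gene counts for siControl, 58078323 to 59411087 for siNsun2 and 52158403 to 102070223 over the K562 libraries. Levels are given in CPM, gene counts scaled to a common library size by TMM, and log2 changes come from the edgeR quasi-likelihood test, whose p-values were corrected over every gene tested (Benjamini-Hochberg). Called means an adjusted p under 0.05. Reads were assigned over whole gene spans, introns included, as the 0 counts of nearly all genes nested in another on the same strand show, so that these levels hold unspliced RNA and are not protein levels. A change in the amount of RNA per cell and a change in transcription or retention on chromatin cannot be told apart in them, nor can fewer cells of a type from less RNA per cell. Some properties of the libraries moved with the groups. Reads outside annotated genes made up 19.9% ± 0.348 of records in siControl and 29.4% ± 0.464 in siNsun2 (SD, n = 3). Genes with at least 1 count numbered 33529 to 34601 in TET2 WT shMBD6 but 24480 to 26963 in the libraries labelled TET2 KO shMBD6. Their part in the results was not tested. Of 5 mESC markers 4 were detected, at a summed 935 to 962.3 CPM in siControl and 829 to 848 in siNsun2, whereas 5 fibroblast markers summed to 25.4 to 33.5 CPM. In K562, 4 of 5 line markers summed to 189 to 205 CPM in TET2 WT shControl, 160 to 174 in TET2 WT shMBD6, 123 to 134 in TET2 KO shControl and 160 to 162 in the libraries labelled TET2 KO shMBD6, and lymphoid and monocyte markers to at most 2.15 CPM in any library. Sox2 and HBG2 were listed at 0 in every library of their species. The part of these marker shifts in the results was not tested either.

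The targeted genes were checked first. Nsun2 stood at 133, 126 and 130 CPM in siControl and at 98.8, 106 and 103 in siNsun2, with a log2 change of -0.34 (SE 0.03, adjusted p = 2.78e-16). MBD6 stood at 43.3, 42.7 and 38.6 CPM in TET2 WT shControl and at 31.0, 25.7 and 27.3 in TET2 WT shMBD6, with a log2 change of -0.57 (SE 0.08, adjusted p = 1.83e-07). In TET2 KO cells, MBD6 stood at 30.6, 30.8 and 29.4 CPM with shControl and at 30.6, 38.4 and 34.2 with the shMBD6 label, differing by 0.19 on the log2 scale (SE 0.08, adjusted p = 0.0574). The label of a knockdown was thus not borne out by MBD6 caRNA in TET2 KO, and directions that rest on those 3 libraries are directions of the libraries so labelled. TET2 caRNA, counted over the whole gene, was 121 ± 2.59 CPM in TET2 WT shControl and 129 ± 2.23 in TET2 KO shControl (SD, n = 3), which does not check a deletion inside the gene. In the libraries labelled TET2 KO shMBD6 it was lower than in TET2 KO shControl (log2 -0.44, SE 0.04, adjusted p = 7.24e-11). It was also lower there than in TET2 WT shMBD6 (-0.36, SE 0.04, adjusted p = 3.9e-09).

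Levels were compared between genes per kb of gene span. In siControl mESC, Fam208a was highest at 7.91 ± 0.249 CPM per kb of span (SD, n = 3). Mphosph8 (4.88 ± 0.0174), Morc2a (4.86 ± 0.00253) and Trim28 (4.78 ± 0.0895) followed, and neighbours in that order overlapped between libraries. Setdb1 stood at 3.66 ± 0.121, Atf7ip at 3.38 ± 0.0385 and Ehmt1 at 2.05 ± 0.0114 CPM per kb, each apart from the next. Per kb of exon Ehmt1 ranked 3 of the 10, and Mphosph8 came first. Ehmt2 (1.69 ± 0.0292) and Suv39h2 (1.57 ± 0.122) overlapped, and Pphln1 was lowest at 1.01 ± 0.0351. In K562 TET2 WT shControl the order was different, with TRIM28 at 10.4 ± 0.344 CPM per kb and TASOR next at 2.24 ± 0.0662. TRIM28 is also the shortest of the 10 human genes, at 6659 bases, whereas mouse Trim28 is annotated with 31922. Their exon lengths are close, at 4306 and 4158 bases, and per kb of exon Trim28 ranked 2 in siControl. The place of this gene per kb of span is thus not compared like for like between the species. MORC2 (1.72 ± 0.0301) lay above SETDB1 (1.58 ± 0.0475) and SUV39H2 (1.55 ± 0.0211), whose libraries overlapped. ATF7IP (1.23 ± 0.0172) overlapped MPHOSPH8 (1.19 ± 0.103), followed by EHMT1 (0.897 ± 0.0137), PPHLN1 (0.836 ± 0.0222) and EHMT2 (0.545 ± 0.0240). The order depended on the length used: per kb of exon, PPHLN1 ranked 2 of the 10 and MORC2 ranked 9 in TET2 WT shControl, while TRIM28 stayed at rank 1 and EHMT2 at rank 10. EHMT2 was the least abundant of the 10 per kb of exon in siControl too. EHMT1 may be undercounted in the human tables, as 92027 of its 251025 bases overlap a long non-coding RNA gene on the same strand in GENCODE v44. Reads lost to that overlap were not measured.

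**Figure D1:**
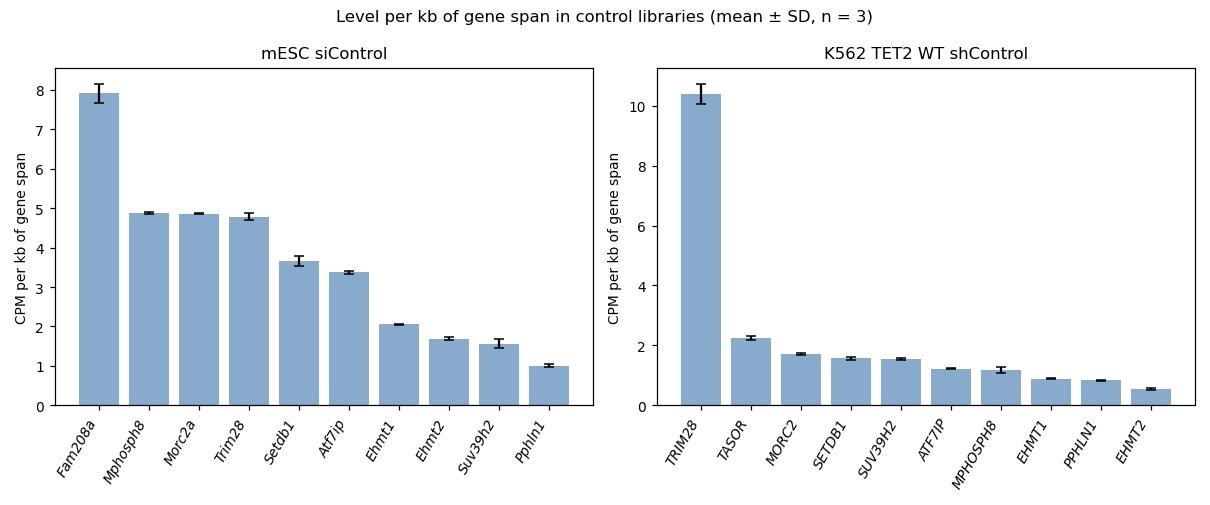
Level of each gene in CPM per kb of gene span (bars, mean; error bars, SD of 3 libraries) in control mESC on the left and control K562 on the right, ordered from high to low, with separate vertical axes. Fam208a leads in mESC at 7.91 and TRIM28 in K562 at 10.4. The annotated span of this last gene is 6659 bases in human and 31922 in mouse.

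The human genes lie on different chromosomes, apart from ATF7IP and PPHLN1, which are both on chromosome 12. On hg38 their spans are chr19:58544064-58550722 for TRIM28 (6659 bases, plus strand), chr1:150926263-150964744 for SETDB1 (38482 bases, plus), chr12:14365676-14502931 for ATF7IP (137256 bases, plus), chr3:56620132-56683265 for TASOR (63134 bases, minus) and chr13:19633659-19673441 for MPHOSPH8 (39783 bases, plus). PPHLN1 spans chr12:42238447-42459715 (221269 bases, plus), MORC2 chr22:30925130-30968774 (43645 bases, minus), SUV39H2 chr10:14878820-14904315 (25496 bases, plus), EHMT1 chr9:137618992-137870016 (251025 bases, plus) and EHMT2 chr6:31879759-31897698 (17940 bases, minus). The lengths are given because changes in K562 moved with gene span.

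Promoter sequence was available from RefSeq (GRCh38.p14) for 9 of the 10 genes, all but TRIM28. Shown are the 250 bases before the start, 5′ to 3′ on the gene's strand, of EHMT2 and SUV39H2, which had the largest positive differences between the shMBD6 effects of the genotypes among the 9, and of ATF7IP and EHMT1, which had the largest negative ones. Capitals mark GGGCGG or its complement CCGCCC (the GC box) and CCAAT or ATTGG (the CCAAT box). The windows are chr6:31897699-31897948 (minus strand), chr10:14878616-14878865 (plus), chr12:14365432-14365681 (plus) and chr9:137618755-137619004 (plus).
EHMT2: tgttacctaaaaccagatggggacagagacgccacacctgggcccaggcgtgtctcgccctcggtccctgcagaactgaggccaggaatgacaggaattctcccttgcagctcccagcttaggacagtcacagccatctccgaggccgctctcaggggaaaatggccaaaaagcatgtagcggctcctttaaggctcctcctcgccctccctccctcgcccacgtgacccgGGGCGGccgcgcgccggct
SUV39H2: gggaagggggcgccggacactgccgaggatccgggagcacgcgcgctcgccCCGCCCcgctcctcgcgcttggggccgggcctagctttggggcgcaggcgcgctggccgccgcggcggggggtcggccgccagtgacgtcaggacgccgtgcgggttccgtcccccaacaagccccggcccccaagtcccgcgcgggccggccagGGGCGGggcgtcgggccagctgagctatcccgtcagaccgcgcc
ATF7IP: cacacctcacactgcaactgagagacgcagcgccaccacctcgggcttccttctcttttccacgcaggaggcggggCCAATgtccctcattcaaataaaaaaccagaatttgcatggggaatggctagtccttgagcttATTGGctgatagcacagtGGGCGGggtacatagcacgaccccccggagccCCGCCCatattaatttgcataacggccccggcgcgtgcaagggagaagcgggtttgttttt
EHMT1: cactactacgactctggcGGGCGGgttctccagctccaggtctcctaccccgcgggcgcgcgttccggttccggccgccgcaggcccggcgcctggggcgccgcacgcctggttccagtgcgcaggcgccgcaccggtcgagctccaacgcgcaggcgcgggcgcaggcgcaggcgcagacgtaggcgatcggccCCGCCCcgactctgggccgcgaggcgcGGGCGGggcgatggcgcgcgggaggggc
The GC box, which Sp1-type factors bind, occurred 1 time in EHMT2, 2 times each in SUV39H2 and ATF7IP and 3 times in EHMT1, and in 42.6% of 35116 promoter windows of this length. The CCAAT box, known as the NF-Y site, occurred 2 times in ATF7IP, 0 times in the others shown and in 32.0% of all windows. CACGTG, the E-box, occurred 1 time in EHMT2 and in 6.34% of all windows, and TATAAA in none of the 9 and in 10.7%. The 2 genes with positive differences held 63.2% (EHMT2) and 79.6% (SUV39H2) G and C, and the 2 with negative ones 55.6% (ATF7IP) and 78.8% (EHMT1), with a median of 58.0% over all windows. Neither base composition nor these motifs separated the pairs.

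Nsun2 depletion in mESC was compared with siControl to see how these genes stood where Nsun2 caRNA was lower (log2 -0.34). The amount of the enzyme is not seen in these libraries. Mphosph8 fell most, and Pphln1, Ehmt2, Ehmt1, Setdb1, Suv39h2 and Morc2a were also called lower, whereas Fam208a was called higher and Trim28 and Atf7ip were not called; under total gene counts Setdb1, Suv39h2 and Morc2a turned positive, and Fam208a turned negative with DESeq2 size factors. Mphosph8 stood at 143, 142 and 142 CPM in siControl and at 113, 110 and 119 in siNsun2. The groups did not overlap, with a log2 change of -0.32 (SE 0.03, adjusted p = 5.74e-16). Pphln1 stood at 97.3, 91.0 and 92.5 CPM in siControl and 81.9, 76.2 and 78.8 in siNsun2, again without overlap, with a log2 change of -0.25 (SE 0.03, adjusted p = 3.89e-09). Both encode HUSH subunits, the chromodomain reader and periphilin. The HUSH scaffold gene Fam208a stood at 418, 437 and 444 CPM in siControl and 458, 436 and 453 in siNsun2. Its groups overlapped, at a log2 change of 0.05 (SE 0.02, adjusted p = 0.0442).

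All 4 methyltransferase genes were called lower in the main fit. Ehmt1 was at 267, 265 and 267 CPM in siControl and 232, 231 and 236 in siNsun2, with a log2 change of -0.19 (SE 0.02, adjusted p = 9.63e-11). Its partner Ehmt2 was at 26.8, 26.6 and 25.9 and at 23.4, 24.0 and 21.7 CPM, a log2 change of -0.20 (SE 0.06, adjusted p = 0.00526), and neither gene's groups overlapped. Setdb1, at 120, 128 and 123 compared with 112, 110 and 112 CPM, changed by -0.15 (SE 0.03, adjusted p = 2.31e-05). Its recruiter Trim28, at 151, 151 and 156 compared with 154, 155 and 152 CPM, differed by 0.01 (SE 0.03, adjusted p = 0.716), and its partner Atf7ip by -0.03 (SE 0.02, adjusted p = 0.281). Morc2a changed by -0.10 (SE 0.03, adjusted p = 0.00062), from 201 ± 0.104 to 187 ± 5.69 CPM (SD, n = 3). Suv39h2 overlapped between the groups, at 27.4 to 31.9 and 27.1 to 27.7 CPM, a log2 change of -0.14 (SE 0.06, adjusted p = 0.0421).

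**Figure D2:**
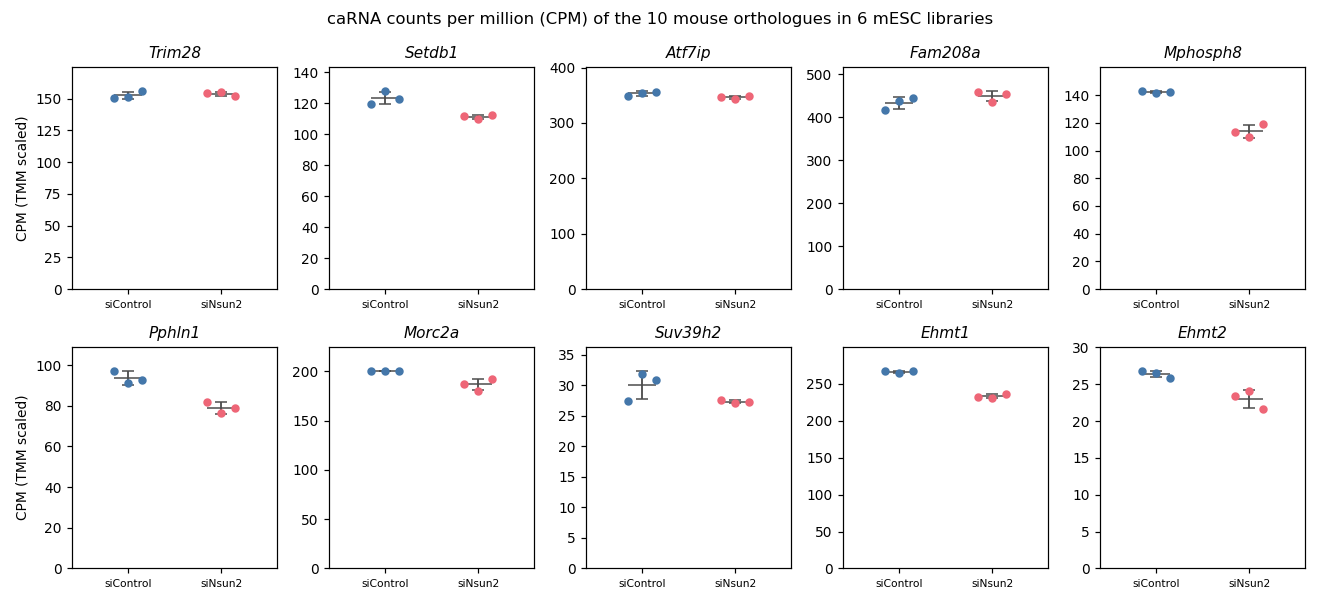
CPM of the 10 mouse orthologues (vertical axes from 0, a panel per gene) in the 3 siControl and 3 siNsun2 libraries; points are libraries, the horizontal mark is the mean and the error bar the SD. Mphosph8 lies at 142 compared with 114 CPM without overlap, and Trim28 and Fam208a overlap.

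In all, 8 of the 10 genes were called in this comparison, 1 higher and 7 lower, where 50.2% of all genes tested were called (25.8% higher and 24.3% lower). A fit limited to genes at a mean log2 CPM of at least 5 called 3163 of 5514. Among the 10 the median log2 change was -0.14, compared with 0.14 over all genes tested. These calls depended on the scaling. Under total gene counts, which moved the median of all genes to 0.32, 4 were called higher and 1 lower, and under DESeq2 size factors 0 higher and 8 lower, while all genes called split into 10232 higher and 2595 lower, or 6351 and 7793, compared with 7128 and 6716 in the main fit. Mphosph8 alone was called in the same direction under the 3 scalings, with -0.14 under total gene counts. All 10 lay below the median of all genes, a position that scaling leaves as it is. Well expressed protein-coding genes (mean log2 CPM of at least 5, which Ehmt2 and Suv39h2 do not reach) had class medians under 0: -0.21 below 20 kb of span, -0.22 from 20 to 50 kb, -0.22 from 50 to 100 kb and -0.18 above, and 3 of the 10 lay below the median of their class, namely Mphosph8, Pphln1 and Ehmt1. Over all protein-coding genes tested the same classes had medians of 0.0037, -0.10, -0.10 and 0.09, and 8 of the 10 lay below them, all but Trim28 and Fam208a. Leaving out 1 library ended the call of Fam208a in 4 of 6 cases (log2 0.02 without siControl replicate 1, 0.05 without siControl replicate 2, 0.03 without siNsun2 replicate 1 and 0.04 without siNsun2 replicate 3). It ended that of Suv39h2 in 5 of 6, all but siControl replicate 1 (-0.10 without siControl replicate 2, -0.13 without siControl replicate 3, -0.15, -0.13 and -0.14 without siNsun2 replicates 1, 2 and 3), and gave -0.21 without siControl replicate 1.

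In K562, TET2 loss was compared first in cells with shControl. MPHOSPH8, PPHLN1, TASOR, EHMT1 and ATF7IP were called higher in TET2 KO and SUV39H2 lower, with the 3 HUSH subunit genes together on the higher side; under total gene counts these 5 lay between -0.02 (ATF7IP, the only sign to turn) and 0.07 and were not called. MPHOSPH8 stood at 43.0, 51.2 and 47.2 CPM in TET2 WT and 55.2, 57.2 and 55.4 in TET2 KO, with a log2 change of 0.24 (SE 0.06, adjusted p = 0.000609). PPHLN1 stood at 181, 190 and 184 CPM in TET2 WT and 211, 214 and 214 in TET2 KO, with a log2 change of 0.20 (SE 0.03, adjusted p = 6.16e-06). TASOR stood at 137, 141 and 145 CPM in TET2 WT and 160, 163 and 163 in TET2 KO, with 0.20 (SE 0.04, adjusted p = 7.96e-05). In each of these 3 genes the groups did not overlap. MORC2, which works with HUSH, did not go with them: it stood at 73.5, 76.2 and 75.0 and at 74.8, 73.7 and 76.0 CPM, a log2 difference that rounds to 0 (SE 0.05, adjusted p = 0.982).

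SUV39H2 stood at 39.1, 39.1 and 40.0 CPM in TET2 WT shControl and 34.8, 33.5 and 32.4 in TET2 KO shControl. The groups did not overlap, and the log2 change was -0.23 (SE 0.06, adjusted p = 0.00184). EHMT1 changed the opposite way, from 226, 228 and 221 to 252, 265 and 254 CPM, with 0.19 (SE 0.03, adjusted p = 2.82e-06). ATF7IP stood at 170, 170 and 166 CPM in TET2 WT and 187, 193 and 184 in TET2 KO, with 0.16 (SE 0.03, adjusted p = 0.000235). TRIM28 (-0.12, SE 0.05, adjusted p = 0.0577), SETDB1 (-0.09, SE 0.05, adjusted p = 0.155) and EHMT2 (0.11, SE 0.12, adjusted p = 0.48) were not called.

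That made 6 of 10 genes called, 5 higher and 1 lower, compared with 45.8% of all genes tested (23.5% higher and 22.3% lower). A fit limited to genes at a mean log2 CPM of at least 5 called 4691 of 5864. The median of the 10 was 0.13 and that of all genes -0.05. Under total gene counts, which set the median of all genes at -0.23, 0 were called higher and 4 lower, and all genes called split into 4526 higher and 8283 lower compared with 6127 and 5794. SUV39H2 alone was called the same way under the 3 scalings (-0.41 under total gene counts). Of the 10, 3 lay below the median of all genes, TRIM28, SETDB1 and SUV39H2. With only the 2 groups fitted, and so without the libraries labelled TET2 KO shMBD6, 7 of the 10 were called. That fit called 12276 of the 23083 genes it tested.

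MBD6 knockdown in TET2 WT cells went with lower caRNA of TRIM28 and of its methyltransferase SETDB1, and of MORC2, EHMT2, SUV39H2 and PPHLN1. No member was called higher. TRIM28 stood at 71.7, 67.2 and 68.6 CPM in shControl and 58.9, 56.8 and 57.2 in shMBD6, with a log2 change of -0.26 (SE 0.05, adjusted p = 6.62e-05). SETDB1 stood at 62.2, 58.6 and 61.1 CPM in shControl and 48.7, 50.1 and 48.6 in shMBD6, with -0.30 (SE 0.05, adjusted p = 6.85e-06). MORC2, at 73.5, 76.2 and 75.0 in shControl, was at 59.5, 62.8 and 63.1 CPM in shMBD6, with -0.28 (SE 0.05, adjusted p = 1.51e-05). The shMBD6 libraries lay below all shControl libraries in the 3 genes. EHMT2, the least abundant member, was at 9.29, 10.0 and 10.1 CPM in shControl and 7.55, 7.78 and 7.49 in shMBD6, with -0.36 (SE 0.12, adjusted p = 0.0114). SUV39H2 fell to 32.7, 32.5 and 34.3 CPM (log2 -0.25, SE 0.06, adjusted p = 0.000968) and PPHLN1 to 162, 169 and 173 CPM (-0.14, SE 0.03, adjusted p = 0.00115). ATF7IP, EHMT1, MPHOSPH8 and TASOR were not called, with log2 changes of 0.05, 0.03, -0.05 and -0.09. TASOR was called without shControl replicate 1 (-0.12, adjusted p = 0.0256).

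Of the 10 genes, 6 were called in TET2 WT, 0 higher and 6 lower, compared with 42.5% of all genes tested (24.7% lower). Among genes at a mean log2 CPM of at least 5, fitted alone, 4201 of 5864 were called. The median of the 10 was -0.19 and that of all genes 0.10. All 10 lay below the median of all genes. Beside well expressed genes of their span class 4 of the 10 lay below the median, and beside all protein-coding genes of that class 9 did. DESeq2 size factors (median of all genes 0.21) gave 2 higher and 3 lower, and total gene counts (0.19) 2 higher and 4 lower. All genes called split into 4616 higher and 6431 lower in the main fit, 5798 and 4715 with DESeq2 size factors and 5659 and 4938 with total gene counts. TRIM28, SETDB1 and MORC2 were called lower under all 3, at -0.15 to -0.26, -0.19 to -0.30 and -0.17 to -0.28.

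In TET2 KO cells, the libraries labelled shMBD6 were set against shControl. There ATF7IP, PPHLN1, EHMT1, MPHOSPH8 and TASOR were called lower, 4 of which had not been called in TET2 WT, and TRIM28, SETDB1, MORC2, SUV39H2 and EHMT2 were not called. ATF7IP, the partner of SETDB1, stood at 187, 193 and 184 CPM in shControl and 136, 145 and 142 in the libraries labelled shMBD6, with a log2 change of -0.42 (SE 0.03, adjusted p = 6.03e-12). PPHLN1 stood at 211, 214 and 214 and at 161, 173 and 170 CPM, with -0.34 (SE 0.03, adjusted p = 4.27e-10). EHMT1 stood at 252, 265 and 254 and at 216, 213 and 209 CPM, with -0.27 (SE 0.03, adjusted p = 4.96e-09). In all 3 the groups were apart, and these 3 were called lower under every scaling. TASOR stood at 160, 163 and 163 CPM and at 133, 143 and 153, a wide spread in the libraries labelled shMBD6 (-0.18, SE 0.04, adjusted p = 0.000445). MPHOSPH8 went from 55.2, 57.2 and 55.4 to 49.6, 49.6 and 49.0 CPM (-0.18, SE 0.06, adjusted p = 0.0134), a call that ended without shControl replicate 2 (-0.16, adjusted p = 0.0554). TRIM28 stood at 63.9, 65.4 and 62.0 and at 75.0, 66.2 and 65.7 CPM (0.11, SE 0.05, adjusted p = 0.0828), and was called without replicate 3 of the libraries labelled shMBD6 (0.15, adjusted p = 0.0371).

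Here 5 of 10 were called, 0 higher and 5 lower, compared with 36.4% of all genes tested (20.6% lower). Among genes at a mean log2 CPM of at least 5, fitted alone, 4376 of 5864 were called. The median of the 10 was -0.11 and that of all genes -0.07. Total gene counts, with the median of all genes at 0.04, gave 3 higher (TRIM28, SUV39H2 and EHMT2) and 3 lower, and moved all genes called from 4095 higher and 5370 lower to 6048 and 4047.

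**Figure D3:**
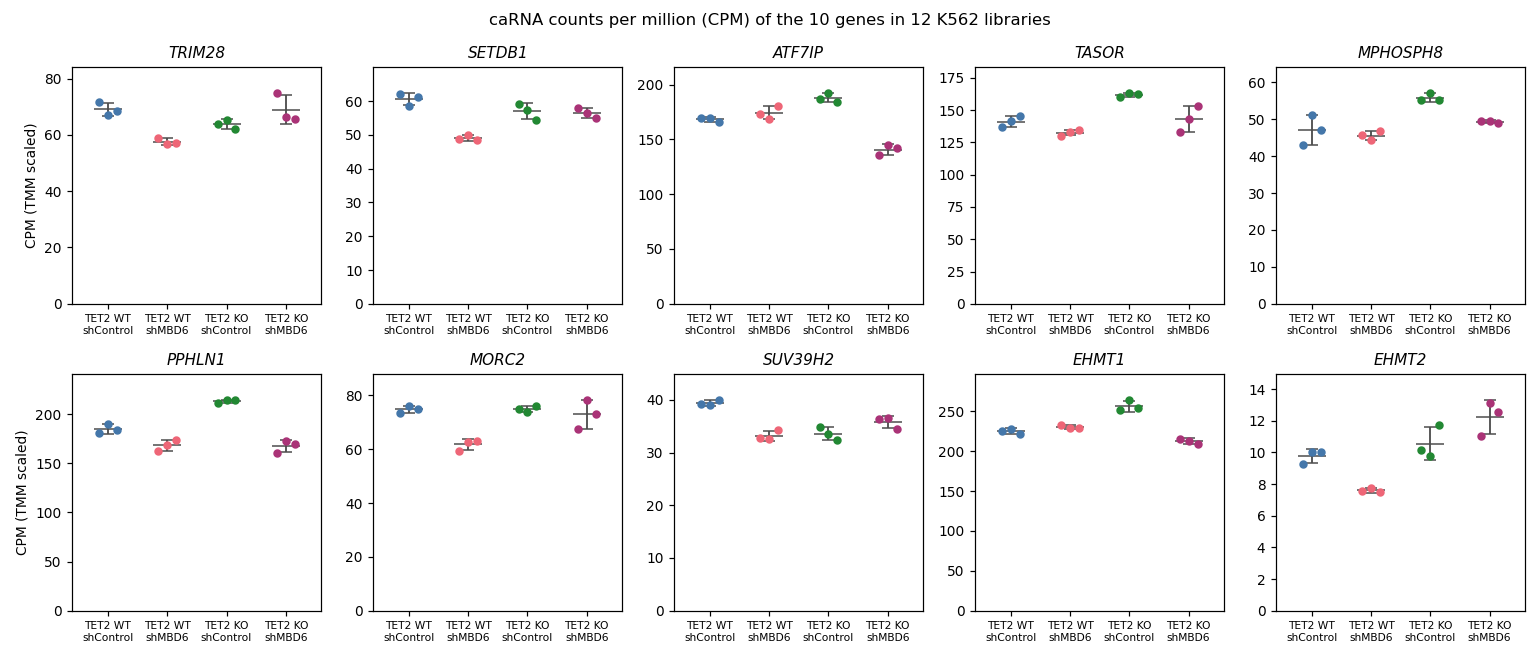
CPM of the 10 genes (vertical axes from 0, a panel per gene) in the 12 K562 libraries by TET2 genotype and shRNA label; points are libraries, the horizontal mark is the mean and the error bar the SD of 3. ATF7IP is lowest in the libraries labelled TET2 KO shMBD6 (141 CPM) and EHMT2 is highest in them (12.2 CPM).

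Between genotypes under shMBD6, EHMT2 differed most. It stood at 7.55, 7.78 and 7.49 CPM in TET2 WT shMBD6 and 11.01, 13.1 and 12.6 in the libraries labelled TET2 KO shMBD6, 1.61-fold higher (log2 0.69, SE 0.12, adjusted p = 7.62e-06). ATF7IP differed the other way, at 173, 169 and 181 compared with 136, 145 and 142 CPM (log2 -0.31, SE 0.03, adjusted p = 2.81e-09). EHMT1 was also lower, at 233, 229 and 229 compared with 216, 213 and 209 CPM (-0.12, SE 0.03, adjusted p = 0.00127). EHMT2, ATF7IP and EHMT1 were apart between the groups and were called the same way under the 3 scalings. TRIM28 (0.26, SE 0.05, adjusted p = 6.4e-05), MORC2 (0.24, SE 0.05, adjusted p = 9.5e-05), SETDB1 (0.20, SE 0.05, adjusted p = 0.00113) and TASOR (0.11, SE 0.04, adjusted p = 0.0153) were called higher, TASOR with a sign that turned under both other scalings. TASOR lost the call without TET2 WT shMBD6 replicate 1 (0.10) or without replicate 3 of the libraries labelled TET2 KO shMBD6 (0.06). MPHOSPH8, PPHLN1 and SUV39H2 were not called. Of the 10, 7 were called, 5 higher and 2 lower, compared with 58.6% of all genes tested (30.1% higher and 28.5% lower), with a median of 0.11 compared with -0.03. A fit limited to genes at a mean log2 CPM of at least 5 called 4470 of 5864. Beside well expressed genes of their span class 9 of the 10 lay below the median, and beside all protein-coding genes of that class 3 did. Total gene counts left 1 higher and 3 lower and DESeq2 size factors 3 higher and 3 lower, with the median of all genes at -0.18 and -0.15. All genes called moved from 7837 higher and 7422 lower to 5778 and 8828 or 6157 and 8557. The comparisons of K562 groups share libraries, so that their values are set side by side and not counted as separate evidence.

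**Figure D4:**
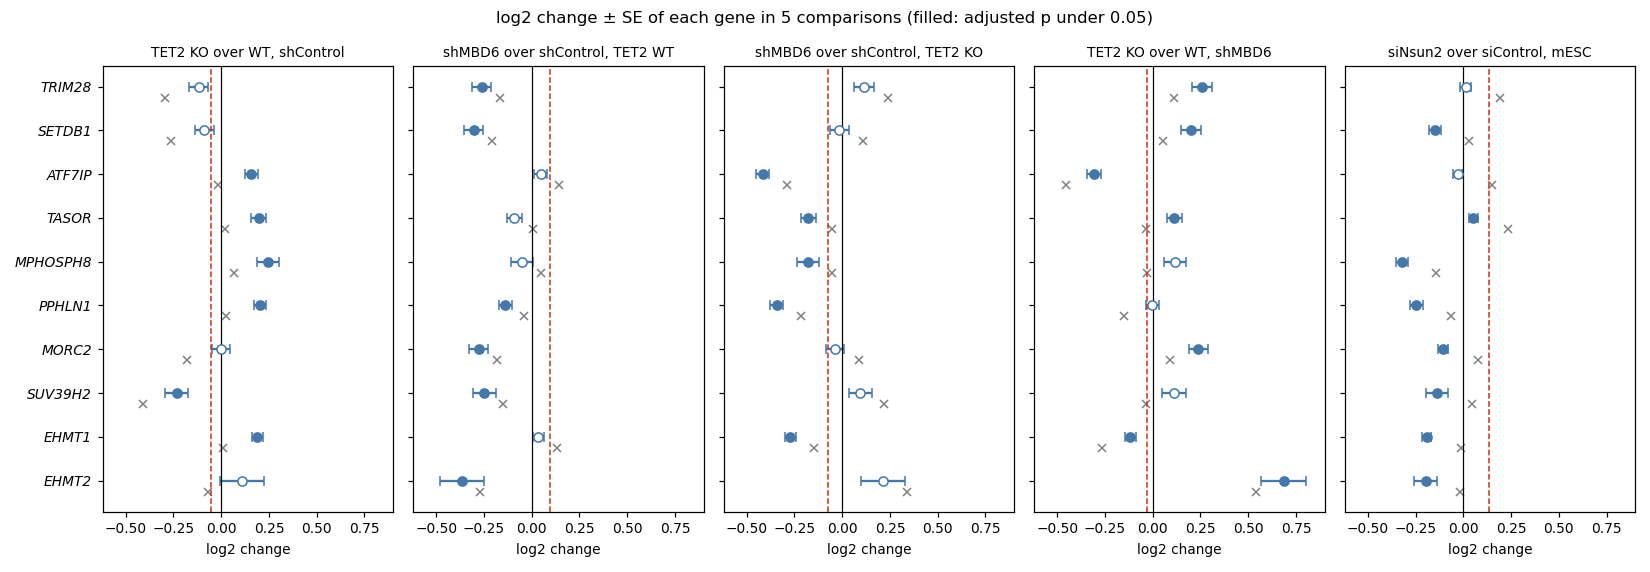
Log2 change (horizontal axis) of each gene in 5 comparisons, with mouse orthologues in the rows of their human genes on the right. Circles with SE bars are the main fit, filled where the adjusted p was under 0.05, crosses are values under total gene counts and the dashed line is the median of all genes tested. The crosses sit to the left of the circles in both TET2 KO over WT panels and to the right in the others.

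The test of the difference between the 2 shMBD6 effects, TET2 KO minus TET2 WT, separated the members into those above and those below 0. Positive differences were called for EHMT2 (0.58, SE 0.16, adjusted p = 0.00386), TRIM28 (0.38, SE 0.07, adjusted p = 4.64e-05), SUV39H2 (0.34, SE 0.09, adjusted p = 0.00112), SETDB1 (0.29, SE 0.07, adjusted p = 0.00102) and MORC2 (0.24, SE 0.07, adjusted p = 0.0039). The corepressor, its methyltransferase and the HUSH-associated ATPase thus stood together with SUV39H2 and EHMT2. Negative differences were called for ATF7IP (-0.47, SE 0.05, adjusted p = 6.55e-10), EHMT1 (-0.31, SE 0.04, adjusted p = 2.36e-07) and PPHLN1 (-0.21, SE 0.05, adjusted p = 0.000527). Partners within a complex were therefore on opposite sides: SETDB1 and ATF7IP, and EHMT2 and EHMT1. MPHOSPH8 (-0.13, SE 0.08, adjusted p = 0.194) and TASOR (-0.09, SE 0.06, adjusted p = 0.207) were not called, and TASOR was called without replicate 3 of the libraries labelled TET2 KO shMBD6 (-0.13, adjusted p = 0.0362). In total 8 of 10 were called, 5 higher and 3 lower, compared with 49.4% of all genes tested (23.9% higher and 25.5% lower). Among genes at a mean log2 CPM of at least 5, fitted alone, 4696 of 5864 were called. The median of the 10 was 0.08 and that of all genes -0.19, or -0.29 with DESeq2 size factors and -0.17 with total gene counts. MORC2 was not called with DESeq2 size factors (0.14, adjusted p = 0.0849), and the other 7 kept call and direction under the 3 scalings. With DESeq2 size factors MPHOSPH8 (-0.23, adjusted p = 0.01985) and TASOR (-0.18, adjusted p = 0.005793) were called lower too. That scaling gave 4 members higher and 5 lower, with 5338 and 7372 of all genes.

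The members' differences moved with gene span. The 5 with positive differences span 6659 to 43645 bases, and the 3 with negative ones 137256 to 251025 bases. All protein-coding genes did the same. Among those at or above a mean log2 CPM of 5, the median difference was 0.51 in 593 genes spanning less than 20 kb, 0.38 in 1588 genes of 20 to 50 kb, 0.15 in 1455 genes of 50 to 100 kb and -0.12 in 1715 longer genes. Without that minimum, the medians were 0.33, 0.11, -0.10 and -0.56. Set beside these medians, TRIM28 (0.38) compares with 0.51, and SUV39H2, SETDB1 and MORC2 (0.34, 0.29 and 0.24) with 0.38. EHMT2 does not reach that abundance, and its 0.58 compares with 0.33 over all genes of its span. MPHOSPH8, of 39783 bases, stands at -0.13 beside the same 0.38. TASOR stands at -0.09 beside 0.15, and PPHLN1, EHMT1 and ATF7IP (-0.21, -0.31 and -0.47) beside -0.12. Beside the well expressed classes 9 of the 10 lay below the median, and beside all protein-coding genes 9 of the 10 lay above it, all but MPHOSPH8, so that the side depended on the abundance of the genes compared. The part of gene span, and of the number of genes detected, in the members' changes was not tested.

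**Figure D5:**
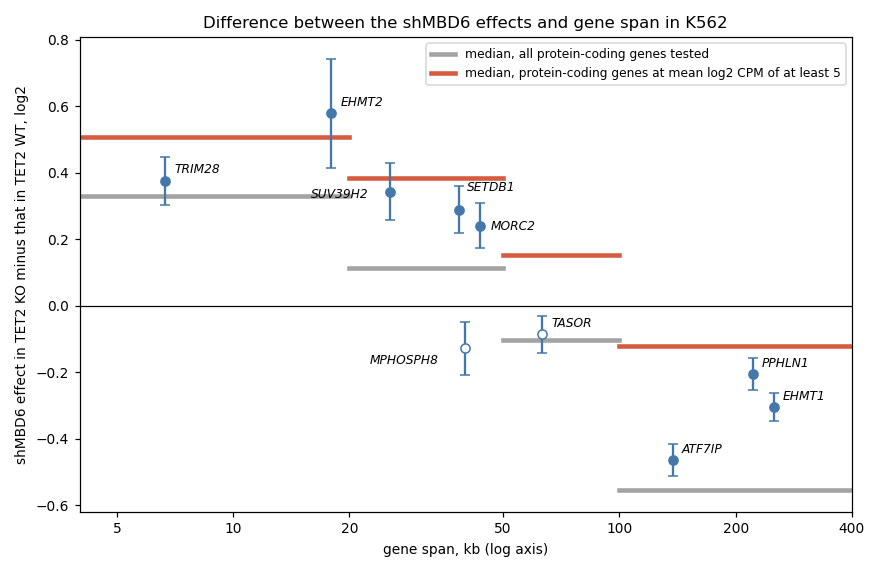
Difference between the shMBD6 effects (TET2 KO minus TET2 WT, log2, vertical axis) against gene span in kb (log axis) for the 10 genes in K562. Points carry the SE and are filled where the adjusted p was under 0.05; horizontal lines are medians over protein-coding genes of each span class, all tested (grey) or at a mean log2 CPM of at least 5 (red). Short members lie above 0, the 3 members over 100 kb below 0, and MPHOSPH8 at -0.13 lies apart from the red median of its class, 0.38.

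In the single K562 comparisons the medians also moved steadily with span, upward in some and downward in others. After Nsun2 depletion in mESC they did not. For shMBD6 in TET2 WT the medians of the well expressed classes, from short to long, went up in the order -0.34, -0.27, -0.18 and -0.08. In TET2 KO they went down from 0.18 and 0.12 to -0.02 and -0.20. For TET2 KO over WT under shMBD6 they went down too, from 0.33 and 0.31 to 0.22 and 0.09. For TET2 KO over WT under shControl they went up again, from -0.20 and -0.08 to 0.06 and 0.18. MPHOSPH8 at 0.24 and EHMT2 at 0.11 stood above their classes there (-0.08 and -0.20), and SUV39H2 at -0.23 below its class. Genes within 5 Mb of a member were summarised as a measure of its neighbourhood. For the difference between shMBD6 effects their median was 0.24 around SETDB1 (237 genes) and 0.22 around TRIM28 (174 genes), beside the members' own 0.29 and 0.38. The neighbours' median had the member's sign in 6 of the 10, also around EHMT2 (0.23), ATF7IP (-0.25), MPHOSPH8 (-0.26) and PPHLN1 (-0.18). It had the opposite sign around EHMT1 (0.13), TASOR (0.09), SUV39H2 (-0.12) and MORC2 (-0.0034). Around Mphosph8 in mESC the neighbours' median after Nsun2 depletion was 0.01 (201 genes), compared with -0.32 for the gene.

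The members' profiles over the 12 K562 libraries were compared with those of 5342 other protein-coding genes at a mean log2 CPM of at least 5, by the root mean square (RMS) difference of centred log2 CPM. PPHLN1 was matched most closely, by MAN1A2 with an RMS difference of 0.013, where the RMS of its own profile was 0.14. The next was CENPP at 0.027. For the others the nearest genes were at 0.03 to 0.07: PSKH1 and CABIN1 for TRIM28, UBE2L3 and EZH2 for SETDB1, EXT1 for ATF7IP, CEP350 and TBC1D15 for TASOR, RAB11FIP2 and KATNAL1 for MPHOSPH8, CHD6 and CCNL1 for MORC2, PHKA2 and CREBBP for SUV39H2, GBF1 and KIF13A for EHMT1, and COG2 and CISD1 for EHMT2. No member was among the 2 nearest of another. Among themselves, TRIM28 and SETDB1 were the nearest pair (0.06), TASOR and MPHOSPH8 came next (0.07), and EHMT1 was nearest to ATF7IP (0.08) and not to its partner EHMT2, whose nearest member was MORC2 at 0.18.

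A wider list of 40 heterochromatin genes (HP1 proteins, other H3K9 methyltransferases and their partners, H3K9 demethylases, paralogues of the members, cofactors, chromatin assembly and remodelling factors and KRAB zinc finger adaptors) was counted beside the members. In each species 39 of the 40 were tested. After Nsun2 depletion 4 were called higher and 29 lower, with a median log2 change of -0.18, compared with 25.8% and 24.3% of all genes. The largest were Trim66, a germ-cell paralogue of Trim28, at 3.98 to 4.88 CPM in siControl and 5.995 to 7.45 in siNsun2 (0.56, adjusted p = 0.000159), Uhrf1, which links maintenance DNA methylation to H3K9 methylation (-0.54, adjusted p = 1.57e-28), Hells, a chromatin remodeller (-0.42, adjusted p = 3.16e-29), and Setdb2 (-0.42, adjusted p = 2.09e-12). All 3 HP1 genes were called lower, Cbx1 (-0.16), Cbx5 (-0.21) and Cbx3 (-0.31), of which only Cbx3 was called under total gene counts and Cbx1 turned to 0.02. Under total gene counts the list gave 11 higher and 8 lower.

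In TET2 KO over WT under shControl the list held 16 higher and 10 lower (median 0.04), where 23.5% and 22.3% of all genes were called higher and lower, but 10 higher and 20 lower (median -0.14) under total gene counts. The largest were ZNF91, a KRAB zinc finger gene known for binding SVA retroelements, at 6.46 to 7.04 compared with 17.0 to 18.5 CPM (1.38, adjusted p = 7.95e-12), KDM7A, an H3K9 and H3K27 demethylase (0.92, adjusted p = 2.31e-18), SUV39H1, the paralogue of SUV39H2 (-0.75, adjusted p = 1.93e-09), and RESF1, a SETDB1 cofactor (0.71, adjusted p = 2.21e-18). For shMBD6 in TET2 WT it held 9 higher and 21 lower (median -0.18; 9 and 15 under total gene counts), compared with 17.7% and 24.7% of all genes, led by TRIM66 (-1.03, adjusted p = 6.73e-21), MORC4 (0.92, adjusted p = 0.00525), SUV39H1 (-0.62, adjusted p = 1.2e-07) and CBX3, an HP1 gene (-0.59, adjusted p = 8.6e-11). For the libraries labelled shMBD6 in TET2 KO it held 12 higher and 16 lower (median -0.02), compared with 15.7% and 20.6% of all genes, and 18 higher and 14 lower (median 0.11) under total gene counts, led by MORC1 (-1.40, adjusted p = 2.1e-15), MORC4 (-1.40, adjusted p = 0.00012), ATF7IP2 (-0.87, adjusted p = 1.16e-22) and RESF1 (-0.74, adjusted p = 3.05e-18). These changes exceeded any of the 10 members in size.

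Between genotypes under shMBD6 the list held 23 higher and 6 lower (median 0.17), compared with 30.1% and 28.5% of all genes. Total gene counts gave 17 and 14 (median 0.02) and DESeq2 size factors 17 and 11 (median 0.05). The median of all genes moved as well, from -0.03 to -0.18 and -0.15, and lay below that of the list under each scaling. All genes called split into 5778 higher and 8828 lower, or 6157 and 8557, compared with 7837 and 7422 in the main fit. The largest changes were those of MORC1 (-1.92, adjusted p = 2.55e-19), MORC4 (-1.77, adjusted p = 2.2e-06), TRIM66 (1.19, adjusted p = 4.4e-23) and KDM7A (0.95, adjusted p = 1.51e-18). For the difference between the shMBD6 effects 18 were higher and 15 lower (median 0.12), compared with 23.9% and 25.5% of all genes, or 19 and 14 under total gene counts and 16 and 16 with DESeq2 size factors. MORC4 (-2.33, adjusted p = 5.58e-06) rested on 57 to 310 counts per library. MORC1 stood at 23.6, 25.5 and 22.3 CPM in TET2 WT shControl, 34.3, 34.6 and 34.1 in TET2 WT shMBD6, 25.1, 24.3 and 22.6 in TET2 KO shControl and 9.55, 8.25 and 9.39 in the libraries labelled TET2 KO shMBD6 (-1.93, adjusted p = 1.05e-15). TRIM66 went the other way, at 146 to 157, 72.2 to 75.3, 100 to 106 and 167 to 169 CPM in the same order (1.73, adjusted p = 2.17e-23). SUV39H1 followed TRIM66, at 27.1 to 30.5, 17.95 to 19.5, 16.0 to 18.6 and 26.7 to 30.2 CPM (1.31, adjusted p = 1.56e-11), beside 0.34 for SUV39H2. The genes named from the list were chosen among those that kept their direction under total gene counts.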

How the data were processed

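Chromatin-associated RNA was sequenced from rRNA-depleted, stranded libraries, 6 from mESC and 12 from K562 in 6 groups of 3, grouped by the submitters' labels. The deposited files hold raw read counts per gene, unnormalized, which the authors made from reads aligned to mm10 or hg38. The submitters' processing notes name Trimmomatic 0.39, HISAT2 2.2.1 and HTSeq 0.12.4. Gene symbols and coordinates came from GENCODE M21 and v44, which matched 99.93% of mouse and 99.12% of human identifiers. Of genes nested in another gene on the same strand, 99.852% (mouse) and 95.818% (human) had 0 counts, compared with 8.623% and 27.813% of those nested on the opposite strand. Lines that name no gene, such as reads outside genes, were left out of library sizes. One further mESC library, labelled Pspc1 WT, entered no comparison.

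The 10 genes, the heterochromatin list and the tests were chosen with earlier results of these data known. Genes were kept by the filterByExpr function of edgeR 4.0.16 (minimum count 10), scaled by TMM and tested by its quasi-likelihood test with robust dispersion (limma 3.58.1, R 4.3.3), in a model of 12 K562 libraries and another of 6 mESC libraries. Adjusted p-values are Benjamini-Hochberg over all genes tested. Alternatives were DESeq2 1.42.0 size factors and test, total gene counts, no filter, a minimum mean log2 CPM of 5, a fold threshold of 1.5, the 2 groups compared alone, a replicate block and leaving out each library. The named genes were the 10 members, the 4 genes of the list with the largest called change that kept their direction under total gene counts, and for each member the 2 genes with the nearest profile, of which 1 is not reported here. Gene span classes were added after the data were seen. The fit was also run on simulated counts, and the outcome of that run is not given here. Replicates differed by more than sampling noise (chi-square per degree of freedom 3.87 to 14.1), so none was counted as a repeat deposit. Depth was 52158403 to 102070223 gene counts per library, and the lowest count of a member in a library compared was 441.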

Additional observations from a re-analysis of the deposited data

Results flagged for a closer look

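The shMBD6 effect differed between TET2 KO and TET2 WT K562 in 8 of the 10 genes, where 49.4% of all genes tested were called. In a fit limited to genes at a mean log2 CPM of at least 5, 4696 of 5864 were called. The test was that of the difference itself (KO minus WT, log2, edgeR, adjusted p under 0.05). The values were 0.58 for EHMT2, 0.38 for TRIM28, 0.34 for SUV39H2, 0.29 for SETDB1, 0.24 for MORC2, -0.21 for PPHLN1, -0.31 for EHMT1 and -0.47 for ATF7IP. MBD6 itself was lower with shMBD6 in TET2 WT and not in the libraries labelled TET2 KO shMBD6, and gene span moved with the sign of the difference. The part of either was not tested.

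All 10 mouse genes also had more than 3 counts in the single mESC library labelled Pspc1 WT, which is in no comparison. CPM of gene counts there were 345.5 for Trim28, 210.9 for Setdb1, 246.2 for Atf7ip, 588.7 for Fam208a, 174.3 for Mphosph8, 85.2 for Pphln1, 208 for Morc2a, 33.7 for Suv39h2, 277 for Ehmt1 and 36.2 for Ehmt2. Fam208a was the most and Suv39h2 the least abundant of the 10 in it, before correction for length.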

How the results depend on the processing

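Scaling and the abundance filter decided several calls. After Nsun2 depletion, 5 members were called under total gene counts and 5 at a mean log2 CPM of at least 5, compared with 8. Ehmt2 and Suv39h2 did not reach that log2 CPM and were not tested under it. Of the heterochromatin list 19 were called under total gene counts, compared with 33. Between genotypes under shMBD6, 4 members were called under either setting, compared with 7. A required change of 1.5-fold left 0 members in the other 5 comparisons and 1 between genotypes under shMBD6. With that fold, 5616, 6611, 5113, 3956 and 9639 of all genes were called (siNsun2, TET2 KO over WT with shControl, shMBD6 in TET2 WT, shMBD6 in TET2 KO, TET2 KO over WT with shMBD6). The abundance filter left 5514 mouse and 5864 human genes tested, and EHMT2 was not among them. Of these, 3163, 4691, 4201, 4376 and 4470 were called in the same order, and 4696 for the difference of shMBD6 effects. Each was a larger share than that called among all genes tested without this filter. Fitting only the 2 groups compared called 7, 7, 5 and 6 members in the 4 K562 comparisons. Of all genes tested these fits called 12276 of 23083, 12720 of 24869, 8736 of 21187 and 13623 of 23911.

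Signs of small log2 changes turned. For siNsun2, Trim28 gave -0.047 with DESeq2 size factors, -0.0025 with no filter, -0.070 in the DESeq2 test and -0.0036 to 0.020 when a library was left out, and Fam208a gave -0.0073 with DESeq2 size factors and -0.029 in the DESeq2 test. Under total gene counts Setdb1 gave 0.031, Atf7ip 0.15, Morc2a 0.077 and Suv39h2 0.043, and under the abundance filter Setdb1 gave 0.058, Atf7ip 0.18, Morc2a 0.10 and Ehmt1 0.015. For TET2 KO over WT with shControl, total gene counts gave -0.019 for ATF7IP and -0.069 for EHMT2, and MORC2 ran from -0.016 to 0.012 when a library was left out. For shMBD6 in TET2 WT, TASOR gave 0.018 with DESeq2 size factors, 0.0052 with total gene counts, 0.0135 unfiltered, 0.076 under the abundance filter and 0.018 in the DESeq2 test, and MPHOSPH8 in the same order 0.060, 0.047, 0.054, 0.12 and 0.059. MPHOSPH8 ran from -0.12 to 0.0089 when a library was left out, and PPHLN1 gave 0.029 under the abundance filter. For shMBD6 in TET2 KO, total gene counts, no filter and the 2 groups alone gave 0.11, 0.034 and 0.034 for SETDB1 and 0.088, 0.012 and 0.011 for MORC2, with ranges of -0.047 to 0.012 and -0.093 to 0.016 when a library was left out. For TET2 KO over WT with shMBD6, SETDB1 gave -0.015 under the abundance filter, and PPHLN1 -0.028 to 0.032 when a library was left out. There DESeq2 size factors, total gene counts, the abundance filter and the DESeq2 test gave -0.0085, -0.037, -0.10 and -0.0079 for TASOR, -0.0042, -0.032, -0.10 and -0.0039 for MPHOSPH8 and -0.0087, -0.037, -0.10 and -0.0084 for SUV39H2. The cause was not tested.

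Leaving out 1 library at a time gave 6 to 7, 6 to 7, 4 to 6, 6 to 7 and 8 to 9 members called (siNsun2, shMBD6 in TET2 WT, shMBD6 in TET2 KO, TET2 KO over WT with shMBD6, difference). In the same order 11769 to 13085, 9608 to 10030, 8279 to 9179, 14164 to 15454 and 11924 to 13178 of all genes were called. These fits tested 26886 to 29047 genes. For TET2 KO over WT with shControl no member's call changed, and 10636 to 10982 of all genes were called. Replicate numbers did not pair the libraries (correlation of same-numbered deviations -0.017 to 0.025). With the replicate block 8, 7, 7, 5, 7 and 8 members were called, compared with 8, 6, 6, 5, 7 and 8, and 13698, 11875, 11146, 9579, 15340 and 12873 of all genes. EHMT2, the member with the lowest counts in K562 (441 in 1 library), had an SE of 0.12 in single comparisons there.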
